A study of Mus musculus with 2 samples.

Results

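The BCL2 family of apoptosis regulators was followed through a comparison of 2 mouse lung squamous cell carcinoma (SCC) lines, S1 and S2. A probe set of the deposited array table was taken where its gene symbol named Bcl2, Bcl2l1, Bcl2l2, Mcl1, Bax, Bak1, Bcl2l11, Bid, Bbc3 or Pmaip1. All 10 genes were found, on 32 of the 45101 probe sets, and none of the 32 named a further gene. They are 10 of the 20679 genes that some probe set names alone.

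Both lines came from KALLU, a line grown from lung SCCs of KA/KA mice, which carry a kinase-dead Ikkα knock-in allele on an FVB background, so both carry that allele. They were sorted from 1 parent line by the surface proteins Sca1 and CD24 and grown in the same serum-containing medium. S1 was described as high in Sca1 and more tumorigenic and was read here as the line called KALLU+, and S2, low in Sca1 and less tumorigenic, as KALLU-. The labels give 1 sample per line, and the age and sex of the source mice and the number of arrays behind a value are not given in the sources used here.

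Each deposited value, printed below as a signed fold change, is the authors' signed fold change of S1 over S2 for 1 probe set, a group of short oligonucleotides that reads part of a transcript. The table gives no signal for either line, so the level of a gene in S1 or S2, and whether it was above background, is unknown. There is also no replicate check and no test, and the values below are sizes, put on the log2 scale with their sign. Each gene is summarised by the median of its probe sets. A fold of 2, a log2 value of 1, was used to count changes. For scale, 79 probe sets for receptors of smell and pheromones, taken as silent in such cells, lay between -0.55 and 0.38 on the log2 scale. That yardstick covers dim probe sets only.

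The direction of the comparison was read on the sorting markers. Cd24a was lower in S1 at all 3 of its probe sets, as its sort as CD24-negative has it, with a median log2 fold change of -5.73. Ly6a, which encodes Sca1, was also lower in S1, by -2.57 on the log2 scale (1 probe set), which runs against the description of S1 as the Sca1-high line. Among genes described as high in KALLU+, the log2 fold change was -1.16 for Tnfrsf1a (TNFR1), 0.38 for Bcl2 and 0.86 for Myc. TNFR1 was compared between the lines as protein, Bcl2 by gene array and Myc by both, so the measures are unlike. The authors also reported more of a histone mark of active chromatin at the Tnfrsf1a promoter in KALLU+. They read it as higher transcription of the gene there, and the Tnfrsf1a value here runs the other way. The array description of Bcl2 and Myc comes from the authors' arrays of these lines and is no independent check. The values did not share a direction and did not settle the labels. Every direction below therefore rests on the labels S1 and S2 as the table gives them. Markers of immune cells (5 genes) and endothelial cells (3 genes) had medians inside the receptor range. By their medians, 0 of 8 squamous and epithelial and 0 of 6 mesenchymal markers were 2-fold apart, beside 9.77% of all genes in either direction. Since no levels are given, the presence of the SCC markers could not be checked. The poly-A control RNAs of bacterial origin, spiked into each sample, had a median log2 fold change of -0.45 over 24 probe sets. Centring on them would raise every log2 value by that amount, and how much of it is a difference in scaling was not tested. The 3′ and 5′ control probe sets of actin and Gapdh differed in log2 fold change by -0.09 and -0.07, so 3′ bias was alike in both lines by this measure.

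BCL2 family proteins decide whether the outer membrane of the mitochondrion is opened during apoptosis. The anti-apoptotic members hold the membrane closed by binding their pro-apoptotic relatives, the effectors Bax and Bak form the pores that release cytochrome c, and the BH3-only proteins sense stress and tip the balance by blocking the former and activating the latter. Squamous epithelial cells and the carcinomas that arise from them rely on this balance when they detach, lose growth factor signals or are exposed to TNF.

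The largest differences in the family lay in the BH3-only group and ran in opposite directions (see the plot of probe sets by gene). Pmaip1, which encodes Noxa, the selective antagonist of Mcl1, was 12.4-fold higher in S1, while Bcl2l11, which encodes Bim, the broad antagonist of all the anti-apoptotic members, was 3.20-fold lower by its median. Bid was moderately lower, and Bbc3 had a log2 value of 0.21. The anti-apoptotic genes and the effectors had medians within 2-fold. In counts, 1 of the 10 genes was at least 2-fold higher, where 4.69% of all genes were, and 1 was at least 2-fold lower, where 5.08% of all genes were. Of the 32 probe sets, 2 were at least 2-fold higher, against 6.73% of all probe sets, and 6 were at least 2-fold lower, or 18.8%, against 4.72% of all. Of these 6, 5 read Bcl2l11. The 10 genes split evenly, with 5 medians above 0 and 5 below, and their median log2 value was 0.01, beside -0.04 over all genes.

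**Figure D1:**
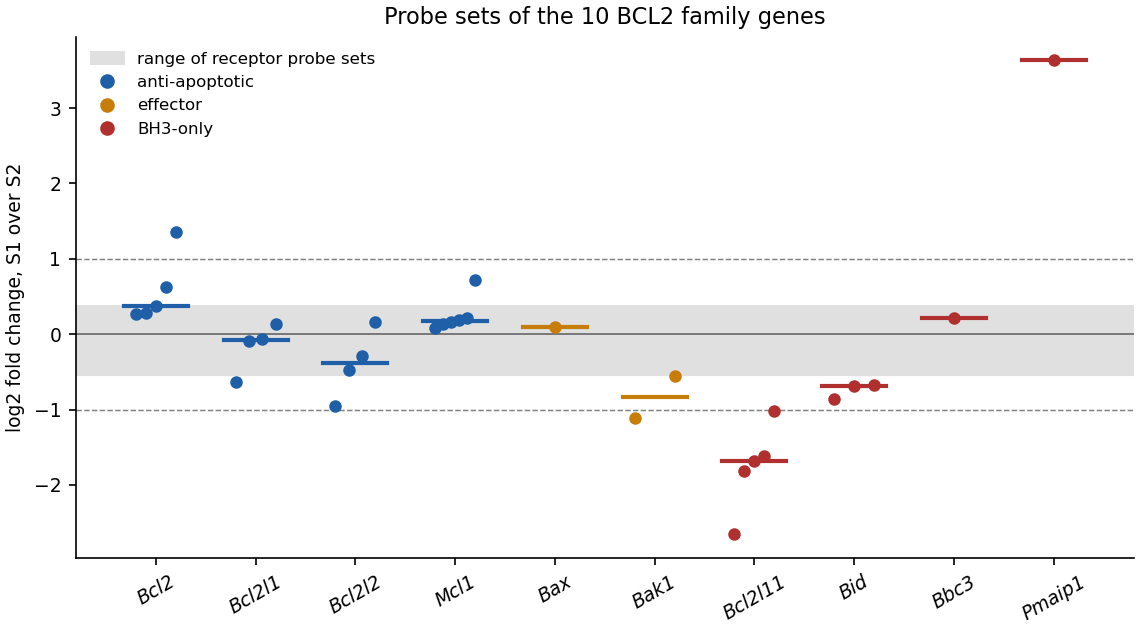
Log2 fold change (S1 over S2, vertical axis) of each of the 32 probe sets, as points, and the median of each gene, as a bar, coloured by role. The grey band is the range of the receptor probe sets, from -0.55 to 0.38, and the dashed lines mark 2-fold. The 5 points of Bcl2l11 lie below the lower dashed line, between -2.65 and -1.02, and the 1 point of Pmaip1 lies at 3.63.

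Bcl2l11 was read by 5 probe sets, whose signed folds were -6.28, -3.51, -3.20, -3.06 and -2.02. All 5 passed 2-fold in the same direction and lay outside the receptor range, and none carries a suffix that marks possible cross-hybridisation. Among the 9609 genes with 2 or more probe sets, 1.97% were at least 2-fold lower at every one. Among the 850 genes with 5 or more, 3 were, Bcl2l11 included. Its median log2 fold change of -1.68 was the 462nd lowest of 20679 genes, with 2.23% of genes below it. The probe sets nonetheless differed in size, over a range of 1.64 on the log2 scale, and which of the Bim transcripts each one reads is not given in the table. The gene was lower in S1 under every alternative run, from -2.65, where only its most changed probe set is read, to -1.23 when centred on the poly-A controls. Under that centring 4 of its 5 probe sets passed 2-fold, and the one nearest to 0 stood at -0.57.

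Pmaip1 rests on 1 probe set, at 12.4-fold or 3.63 on the log2 scale. It was the 28th highest of the 20679 genes, with 0.131% above it. With a single probe set there is no second reading within the array, and the summary over probe sets cannot move the value. Pmaip1, Bbc3 and Bax are textbook targets of the tumour suppressor p53. Beside the value of Pmaip1, the log2 fold changes of the other two were 0.21 for Bbc3 and 0.10 for Bax, each at 1 probe set and inside the receptor range. Trp53, the gene of p53 itself, had a median log2 value of -0.10 over 6 probe sets, from -0.44 to 0.17. Of these 4 genes, Pmaip1 alone lay outside the receptor range. They are not a full list of p53 targets, and a role of p53 was not tested.

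Bid, which caspase-8 cuts to carry a death receptor signal to the mitochondrion, read -1.81, -1.62 and -1.59 as signed folds. Its 3 probe sets were the closest of any member with several, with an SD of 0.10 on the log2 scale, and all 3 lay below the receptor range. No probe set reached 2-fold. The log2 median of -0.69 had 8.99% of genes below it and became -0.25 once the poly-A controls were set to 0, which moves the receptor range as well, to between -0.10 and 0.82. Of the 7 members with 2 or more probe sets, 3 (Bcl2l11, Bid and Bak1) were lower at every one, where 32.2% of all such genes were, so a shared sign alone was common on this array.

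The effectors differed from each other. Bak1 was lower at both probe sets, with signed folds of -2.16 and -1.47 and a log2 median of -0.83 with 6.72% of genes below it. The second of these carries a cross-hybridisation suffix, and without it Bak1 stood at -1.11, past 2-fold. Bax, on 1 probe set, had a fold of 1.07. The log2 value of Bax thus exceeded that of Bak1 by 0.93, a difference that no centring of the arrays can alter. Centred on the poly-A controls, Bak1 was -0.39. That centring shifts the receptor range by the same amount, so Bak1 and Bid stay below it by construction.

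Among the anti-apoptotic genes, Bcl2 was higher in S1 at all 5 probe sets, by 1.20, 1.21, 1.30, 1.55 and 2.57 times. Only the last passed 2-fold, and the log2 median of 0.38 lay at the upper edge of the receptor range, with 86.1% of genes below it. Read from that probe set alone, Bcl2 would be at 1.36 on the log2 scale. Mcl1, a short-lived protein that is lost quickly when its synthesis stops, was higher at all 6 probe sets, by 1.06 to 1.64 times, with a log2 median of 0.17. Of its 6 probe sets, 5 lay inside the receptor range.

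The other 2 anti-apoptotic genes had medians below 0, with Bcl2l1 near the middle of all genes. Bcl2l1, which encodes Bcl-xL, had signed folds of -1.55, -1.07, -1.05 and 1.10. Its log2 median of -0.08 had 44.4% of genes below it. Bcl2l2, which encodes Bcl-w, had -1.93, -1.39, -1.22 and 1.12, and its log2 median of -0.38 had 18.4% of genes below it. Each gene had 1 of its 4 probe sets outside the receptor range. In each gene 3 probe sets were below 0 and 1 above it, and centring on the poly-A controls turned both medians positive, to 0.36 and 0.06. Over the 4 anti-apoptotic genes the log2 median was 0.04, with 1 of 19 probe sets past 2-fold upwards and 0 downwards.

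Set in order, the 10 medians ran from Bcl2l11 at -1.68 through Bak1, Bid, Bcl2l2, Bcl2l1, Bax, Mcl1, Bbc3 and Bcl2 to Pmaip1 at 3.63. From Bcl2l11 up to Bbc3, the probe sets of each gene overlapped those of the next, so those neighbours in the order were not separated by their own spread. Bbc3 and Bcl2, 0.17 apart, did not overlap, but Bbc3 has 1 probe set. The step from Bcl2 to Pmaip1 was 3.26 on the log2 scale. As groups, the 2 effectors had a log2 median of -0.37 and the 4 BH3-only genes of -0.24, which were 0.078 and 0.20 when centred on the poly-A controls. The BH3-only median stands for no single gene, since Pmaip1 and Bcl2l11 lay 5.31 apart on the log2 scale.

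Each anti-apoptotic protein acts by binding pro-apoptotic ones. The 24 pairs taken here are all combinations and not only binding partners, since Noxa is selective for Mcl1. In each pair the change of the anti-apoptotic gene was set against that of the pro-apoptotic gene. These differences are between changes, not between levels, and a scaling of the arrays cancels in them. The anti-apoptotic gene had the higher log2 value in 15 pairs and the pro-apoptotic gene in 9. Bim stood apart from all its partners: the difference from Bcl2l11 was 2.06 for Bcl2, 1.85 for Mcl1, 1.60 for Bcl2l1 and 1.30 for Bcl2l2, and every probe set of these 4 genes was above every probe set of Bcl2l11. Noxa stood apart the other way, with a difference of -3.46 between Mcl1 and Pmaip1. The median difference over all 24 pairs was 0.30. In the 20 pairs without Pmaip1 the anti-apoptotic gene was higher in 15, with a median difference of 0.53 on the log2 scale. Every pair with Pmaip1 ran the other way, so leaving them out raises the share and the median by construction. Bcl2l11, at the opposite end, was kept. The pairs share genes and are no replicates of each other.

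**Figure D2:**
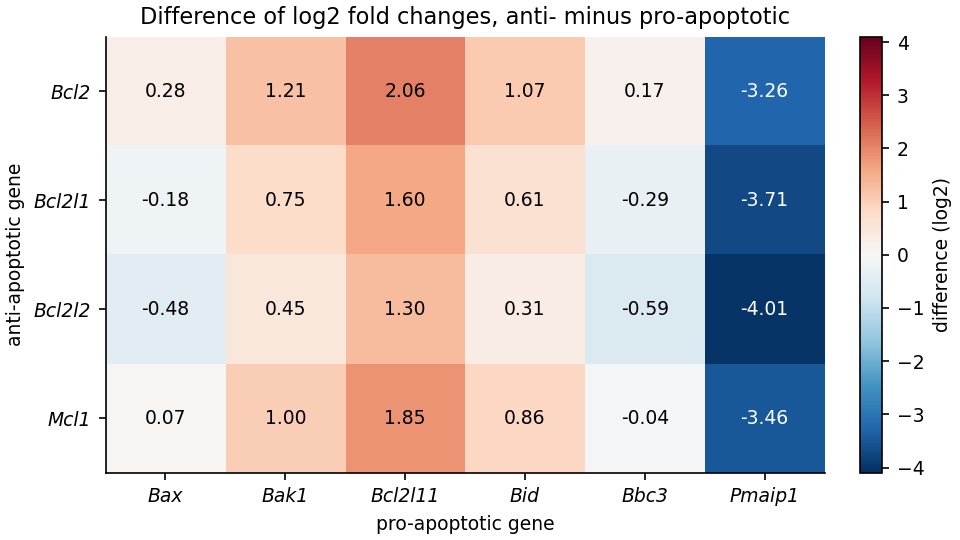
Difference between the log2 fold change of each anti-apoptotic gene (rows) and each pro-apoptotic gene (columns), with red where the anti-apoptotic gene has the higher value and blue where the pro-apoptotic gene has. The Bcl2l11 column is red throughout, from 1.30 to 2.06, and the Pmaip1 column blue throughout, from -4.01 to -3.26.

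The promoter of Bcl2l11 is shown because Bim is a textbook target of the FOXO transcription factors, which are active when growth factor signals are low, and because Bcl2l11 had the lowest value of the family. Promoter windows from RefSeq, of 250 bases before and 50 after a transcript start on GRCm38.p6, matched 9 of the 10 genes, with 14 windows. The FOXO core motif TGTTTAC, searched on both strands, was in 2 of the 14, the windows of the first start of Bcl2l11 and of a start of Bbc3, beside 3.65% of all 32851 windows. The motifs were chosen after the values were known. In the 250 bases before the first start of Bcl2l11 (chr2:128125788-128126037, plus strand) and in 30 bases around the match of Bbc3 (chr7:16310083-16310112, plus strand), the match is in capitals, and in Bcl2l11 it reads on the minus strand:
Bcl2l11: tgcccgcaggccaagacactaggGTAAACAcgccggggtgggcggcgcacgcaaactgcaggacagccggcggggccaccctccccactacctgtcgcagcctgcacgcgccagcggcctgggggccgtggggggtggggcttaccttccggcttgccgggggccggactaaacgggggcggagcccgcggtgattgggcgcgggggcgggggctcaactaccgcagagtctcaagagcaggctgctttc
Bbc3: tctggcgggttTGTTTACaaacaatggggt

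The match in Bcl2l11 begins 227 bases before the start. The 2 genes with the motif had different values, with Bcl2l11 at -1.68 and Bbc3 at 0.21 on the log2 scale. Foxo3, a FOXO factor, was lower in S1 at all 4 of its probe sets, between -0.68 and -0.57, a median of -0.61. Centred on the poly-A controls, Foxo3 was at -0.17. No other FOXO gene was in the lists, and a role of FOXO factors was not tested. Of the other motifs searched, the E-box CACGTG, bound by Myc among others, was in 2 of the 14 windows, of Bax and Bbc3, beside 7.15% of all windows. The STAT motif TTCNNNGAA was in 0, beside 8.30%, and the NF-κB motif was in 2, of Bcl2l1 and Bbc3, beside 8.46%. These are matches of letters in short windows and do not show binding.

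The genes next to each member on its chromosome were read as a local background. The 10 nearest measured genes, 5 on each side in RefSeq order, had a median log2 fold change of 0.02 around Bcl2l11 and -0.08 around Pmaip1, and 0 of the 10 were 2-fold apart in either direction around each. The difference from the neighbours' median was -1.70 for Bcl2l11 and 3.71 for Pmaip1. Bak1, at -0.83, lay only just below the lowest of its neighbours, at -0.80, and its probe set with a log2 value of -0.56 lay inside their range. The neighbours of Bid were the most spread, from -3.40 to 2.59, and Bid lay inside that range.

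**Figure D3:**
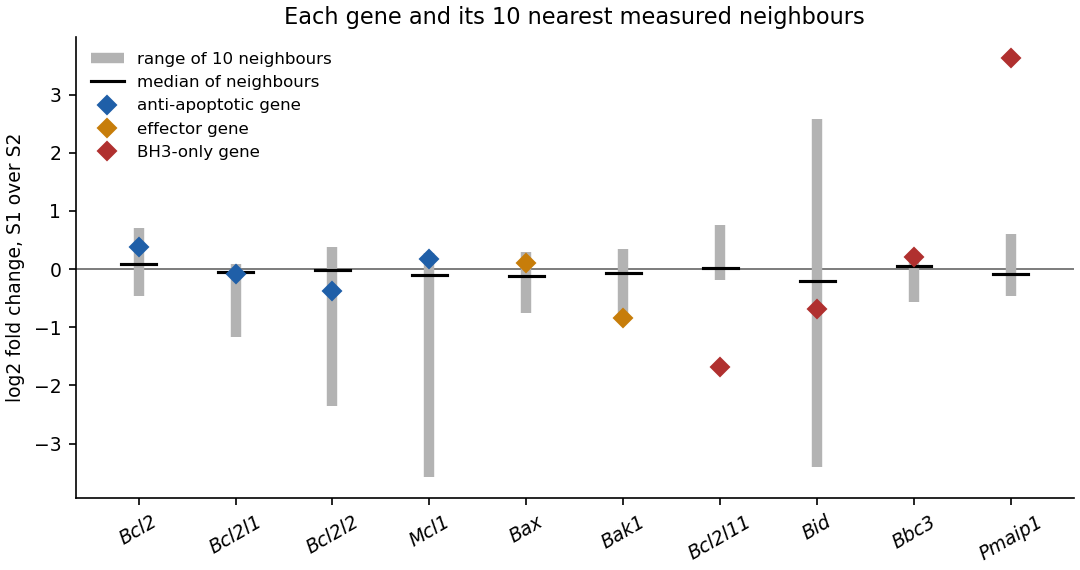
Log2 fold change (S1 over S2) of each gene, as a diamond coloured by role, beside the range (grey bar) and median (black line) of its 10 nearest measured neighbours. Bcl2l11 and Pmaip1 lie outside the range of their neighbours, which run from -0.19 to 0.76 and from -0.47 to 0.60.

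In the rest of the BCL2 family, no median was as far from 0 as those of Pmaip1 and Bcl2l11. Of 16 further members, 0 had a median 2-fold apart, beside 9.77% of all genes in either direction, so the count is near that background. Of the 16, 6 were above 0 and 10 below, and their log2 median was -0.17. The 4 Bcl2a1 genes are near-identical copies on 3 probe sets, all of which name Bcl2a1a, Bcl2a1b and Bcl2a1d together and 1 of which names Bcl2a1c too, so none has a reading of its own. Counted once, they leave 13 values, 5 above 0 and 8 below, with a log2 median of -0.19. Bad, a BH3-only protein held inactive by survival kinases, was lower at both probe sets with a log2 median of -0.70, and Bok, a relative of Bax and Bak, stood at 0.75 at its 1 probe set. Those 2 were the only medians of the 16 outside the receptor range. Bmf, a BH3-only protein released from the cytoskeleton on detachment, had a signed fold of -2.38 at 1 of 3 probe sets, but its log2 median was -0.38. The nearest to 0 were Hrk at 0.10 and Bcl2l12 at 0.11.

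Downstream of the mitochondrion, 5 of 14 genes of the death machinery had a median above 0 and 9 below it. Cycs, which encodes the cytochrome c that the pores release, and Apaf1, which it binds to form the apoptosome, stood at 0.20 and 0.10. Dffa, the inhibitor of the nuclease that cuts DNA in apoptosis, was at 0.07. The list's log2 median was -0.11.

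The death receptor genes, whose signal reaches the family through Bid, held 3 of 8 medians past 2-fold, beside 9.77% of all genes in either direction. Fas, a death receptor, was lower in S1 with a log2 value of -2.01, and Tnfrsf1a, which encodes TNFR1, was lower with -1.16, each at 1 probe set. Cflar, which encodes c-FLIP, the inhibitor of caspase-8 activation, was higher with a median of 1.01, and 3 of its 5 probe sets passed 2-fold, the highest by 3.85 times. Casp8 itself stood at 0.31 and the adaptor Fadd at 0.02. Centred on the poly-A controls, Tnfrsf1a was the 1 of these 3 to come within 2-fold, at -0.72.

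Of 13 genes known to regulate members, 2 were past 2-fold, beside 9.77% of all genes in either direction, so the count is near that background. Usp9x, a deubiquitinase that stabilises Mcl1, was higher at all 7 probe sets and past 2-fold at 6, by 1.43 to 4.88 times, with a log2 median of 1.77. The ubiquitin ligase genes that act on Mcl1 were higher by less, with log2 medians of 0.37 for Huwe1 and 0.47 for Fbxw7, while the Mcl1 transcript was at 0.17. Stat3, a transcription factor that can induce Bcl2l1 and Mcl1, was lower with a median of -1.29, with 2 of 4 probe sets past 2-fold and the others at -0.61 and -0.26. Centred on the poly-A controls, Stat3 came within 2-fold, at -0.84, while Myc passed it, at 1.30. The count of 2 was thus kept under that centring, but by different genes. Rel and Trp73 were near 0, at -0.06 and 0.00.

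**Figure D4:**
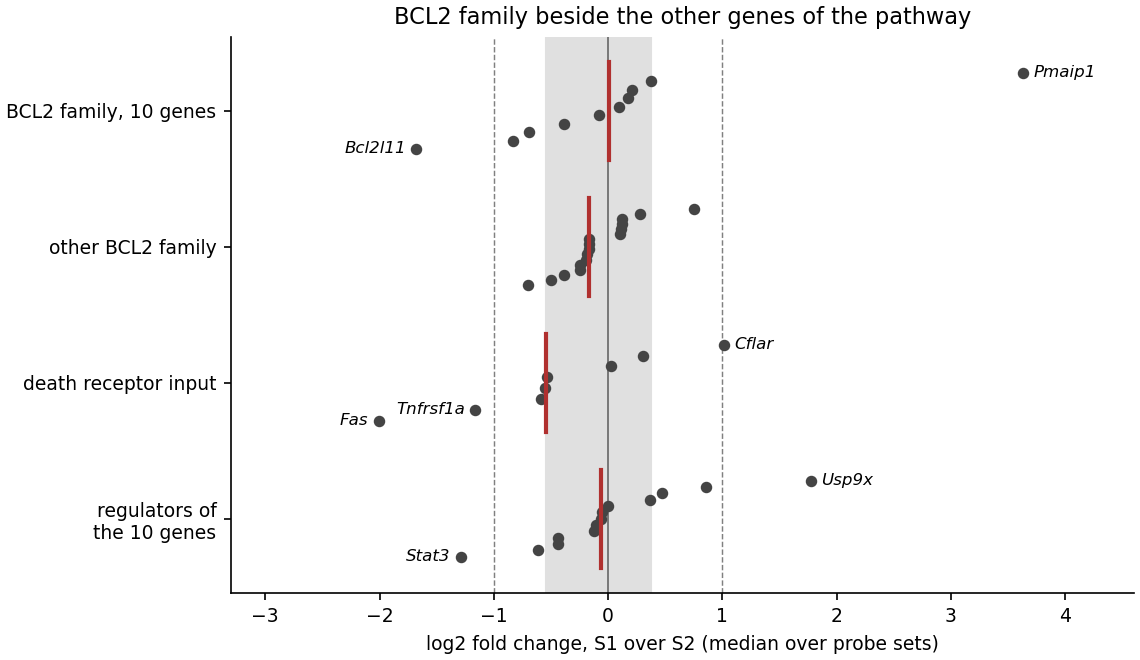
Log2 fold change (S1 over S2, median over probe sets) of each gene, as a point, in the BCL2 family and in lists of the other family members, death receptor genes and regulators, with the median of each list as a red line. The grey band is the receptor range and the dashed lines mark 2-fold. Genes past 2-fold are named: Bcl2l11 and Pmaip1 in the family, 0 in the rest of the family, Fas, Tnfrsf1a and Cflar among death receptor genes, and Stat3 and Usp9x among regulators.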

How the data were processed

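Total RNA of the 2 lines was labelled with biotin and hybridised by the authors to Affymetrix mouse genome arrays, and analysed in Partek Genomics Suite; the processing notes also name MAS5 without a role. The version, background correction and normalization are not given in the sources used here. The authors deposited 1 score per probe set, a signed linear fold change of S1 over S2 in which a minus sign marks a lower value in S1; no value lies between -1 and 1. This is the authors' own comparison and the only measurement in the table, so it was used as deposited.

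Each value was turned into a log2 value with its sign. Of the 45101 probe sets, 5797 carry no gene name and 1280 carry more than 1. Genes were summarised by the median of their probe sets. All genes means the 20679 named alone by a probe set; for the lists, shared probe sets were kept. The members, gene lists, receptor yardstick and poly-A centring were chosen with earlier results of these data known. The text names every member, and of each list the genes past 2-fold and the 2 nearest 0, except that some results of the death machinery list are not reported here; Bad, Bok, Bmf, Cycs, Apaf1, Foxo3, Huwe1, Fbxw7, Myc and Trp53 were added after their values were seen. No test was possible with 1 sample per line. Only the summary over probe sets was tested on simulated data, with noise smaller than the spread between probe sets of a gene here. The pair, neighbour, list, centring and promoter steps were not. Array precision is limited by that number. Python 3.11.15, numpy 2.4.6, pandas 2.3.3 and matplotlib 3.10.9 were used. Counting the Bcl2a1 genes once and 10 neighbours on each side were alternatives chosen after seeing the data.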

Additional observations from a re-analysis of the deposited data

How the results depend on the processing

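No paired analysis was possible because there is 1 sample per line and only their fold change was used. A member was taken to move where its shift passed the SD of 0.49 (log2) pooled over probe sets of the same gene. Of the 10 members, 8 kept their sign under all 5 alternatives that apply to a gene's value; Bcl2l1 and Bcl2l2 turned positive on the poly-A controls. No member probe set names several genes, so that alternative was not run. The values of Bax, Bbc3 and Pmaip1, with 1 probe set each, can shift only by centring. The centrings subtract -0.45 (poly-A controls) or -0.018 (all probe sets) from every value. Both are smaller in size than that SD, so by this rule no member could be taken to move under a centring. Depth (signal over background) is unknown for every value.

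By the probe set with the largest change, the log2 values were 1.36 for Bcl2, -0.63 for Bcl2l1, -0.95 for Bcl2l2, 0.71 for Mcl1 and -2.65 for Bcl2l11; 2 members were then 2-fold higher and 2 lower, the median difference of the pairs was 0.49, and 1 of the other BCL2 family and 2 of the death machinery genes were past 2-fold. Without probe sets open to cross-hybridisation, 2 members were 2-fold lower and the other BCL2 family had a median of -0.025. With centring on the poly-A RNAs, medians were 0.49 for anti-apoptotic, 0.078 for effector and 0.20 for BH3-only genes, and 0.27, 0.33, -0.10 and 0.39 for the other BCL2 family, death machinery, death receptor and regulator lists; 4 member probe sets were 2-fold higher and 4 lower (all Bcl2l11, from 6), 1 gene of the other BCL2 family was past 2-fold, and over the array 5904 probe sets were higher and 1128 lower, from 3034 and 2128. At 1.5-fold, 3 members were lower, 4 and 11 member probe sets higher and lower, 5619 and 4807 of all probe sets, and 2 genes each of the other BCL2 family and the death machinery and 4 regulators were past the threshold. At 4-fold, 0 members were lower, 1 member probe set was higher and 1 lower, 614 and 634 of all probe sets, and 1 death receptor gene and 0 regulators remained past it. The thresholds and centrings move counts and medians by construction; for the others the cause was not tested.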
